A study of Rattus norvegicus with 10 samples.

Results

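The genes examined here encode the matrix metalloproteinases (MMPs), the membrane-bound ADAM proteases, the secreted ADAMTS proteases with the related ADAMTS-like proteins (ADAMTSL), and the tissue inhibitors of metalloproteinases (TIMPs). They were chosen by symbol alone: every gene of the table whose symbol begins with Mmp or Adam and a number, begins with Adamts, or is Timp1, Timp2, Timp3 or Timp4. The set holds 74 of the 22081 genes of the table: 21 MMP, 25 ADAM, 19 ADAMTS, 5 ADAMTSL and 4 TIMP genes. MMPs cut collagens, elastin and proteoglycans and are made as inactive precursors. ADAMs release the outer parts of membrane proteins, and ADAMTSs trim procollagen or cut proteoglycans such as versican. TIMPs block MMPs, and Timp3 also blocks several ADAMs and ADAMTSs. In the wall of intracranial aneurysms these enzymes are studied for the breakdown of collagen and elastic fibres.

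RNA was sequenced from 5 rupture-prone intracranial aneurysms, which lay at the anterior or posterior communicating artery, and from 5 samples of the remaining circle of Willis, the ring of arteries at the base of the brain. All came from wild-type female Sprague–Dawley rats, 10 weeks old at surgery, and were taken on day 63 after it. Every rat, and so the controls too, had lost both ovaries, had the left carotid, right external carotid, right pterygopalatine and left renal arteries tied, and ate a high-salt diet with 3-aminopropionitrile, which inhibits lysyl oxidase, the enzyme that cross-links collagen and elastin. The controls are therefore vessels of operated, hypertensive animals and not of healthy ones. Samples are numbered 4 to 8 in each group, and the circle of Willis samples are called controls.

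The libraries held 4513515 to 7352626 gene reads (median 4733695) in aneurysms and 3017269 to 5692715 (median 4246517) in controls. Mitochondrial genes took 19.4 to 50.3% of them in aneurysms and 37.9 to 59.0% in controls. Reads were scaled with the TMM factors of edgeR, and levels are given as CPM, counts per 1e6 reads of the scaled library. Aneurysm 8 had a TMM factor of 0.282, against 0.759 to 1.57 in the other 9 samples, so that its CPM values are raised the most. It also had only 743 genes with at least 10 exon reads, the lowest number of all samples. Markers of other cells differed between samples and in part between the groups. The summed level of 14 macrophage markers was 257, 4612, 6637, 1182 and 137 CPM in aneurysms 4 to 8, against 72.1 to 228 CPM in controls. The 5 astrocyte markers summed to 3.96 to 181 CPM in aneurysms and 404 to 766 CPM in controls. Most of this was 1 gene, Slc1a3, with 3.96 to 163 CPM in aneurysms and 365 to 546 CPM in controls. Gfap overlapped, with 0.353 CPM in control 7 and 47.6 CPM in aneurysm 6. The 10 neuron markers summed to 2.52 to 154 CPM in aneurysms and 133 to 894 CPM in controls. The 5 endothelial markers summed to 3.03 to 65.1 CPM in aneurysms and 74.7 to 146 CPM in controls. The 7 smooth muscle markers summed to 374 to 1082 CPM in aneurysms and 500 to 1265 CPM in controls. The groups overlapped in the macrophage, neuron and smooth muscle sums, and did not overlap in the astrocyte and endothelial sums. The part of these shifts in the values below was not tested, and in such bulk samples fewer cells of a type and less RNA per cell cannot be told apart.

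Within the family, 10 MMP genes lie side by side on chromosome 8, between positions 5522738 and 5901049 of Rnor6, the build of the files. Their proximal promoters are shown because only 1 gene of the cluster, Mmp12, was read in any number, although most of the cluster shares the same promoter elements. The stretches below are the 100 bases before the annotated start, taken from RefSeq for build GRCr8, 5′ to 3′ on the gene's strand. Capitals mark TGANTCA (searched on both strands) and TATAAA, the usual letters of the box that places the transcription start (searched on the gene's strand). TGANTCA covers the AP-1 site, TGAGTCA or TGACTCA, and is wider, since N admits A and T too. The windows are chr8:12866552-12866651 for Mmp12, chr8:12782729-12782828 for Mmp13, chr8:12925181-12925280 for Mmp3, chr8:12943353-12943452 for Mmp1, chr8:12974607-12974706 for Mmp10, chr8:13074179-13074278 for Mmp20 and chr8:13132943-13133042 for Mmp7, all on the plus strand.
Mmp12: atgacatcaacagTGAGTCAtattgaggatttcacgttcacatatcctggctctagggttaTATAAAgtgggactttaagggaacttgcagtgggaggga
Mmp13: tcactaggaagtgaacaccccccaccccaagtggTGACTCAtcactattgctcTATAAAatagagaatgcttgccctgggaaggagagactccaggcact
Mmp3: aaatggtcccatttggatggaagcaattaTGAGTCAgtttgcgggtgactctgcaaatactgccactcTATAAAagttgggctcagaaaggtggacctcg
Mmp1: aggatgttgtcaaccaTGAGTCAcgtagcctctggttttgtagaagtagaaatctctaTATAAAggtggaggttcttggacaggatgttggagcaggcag
Mmp10: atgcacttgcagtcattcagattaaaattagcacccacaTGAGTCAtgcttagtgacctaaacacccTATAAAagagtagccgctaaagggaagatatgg
Mmp20: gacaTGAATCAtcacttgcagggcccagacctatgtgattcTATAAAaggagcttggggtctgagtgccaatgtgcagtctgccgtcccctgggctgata
Mmp7: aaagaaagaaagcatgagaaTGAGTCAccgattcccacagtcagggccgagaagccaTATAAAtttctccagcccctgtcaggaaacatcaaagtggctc
Of the 10 cluster genes, all matched in RefSeq, 7 hold both elements in these 100 bases, against 0.134% of all 33469 promoter windows of the same length. In Mmp20, 1 of the 7, the match is TGAATCA, which is not the AP-1 site as written above. The shares of all windows use the same wider pattern. TGANTCA alone occurs in 2.47% and TATAAA in 3.86% of all windows. Of the 40 other members that matched, 0 hold TGANTCA and 5 hold TATAAA. Such matches are descriptions of letters and not of bound sites.

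Mmp12, the macrophage metalloelastase, which degrades elastin, had 0, 2599, 647, 630 and 0 gene reads in aneurysms 4 to 8, against 0, 1, 1, 0 and 1 in controls 4 to 8. Thus aneurysms 5, 6 and 7 stood above every control, and aneurysms 4 and 8 did not have a single read. Nearly all reads lay in exons (3857 of 3879), and 638 crossed an exon junction. The other 9 genes of the cluster had 214 reads in all. Mmp3, Mmp10, Mmp1b and Mmp27 had 0 reads, Mmp13 had 1 and Mmp1 had 6. Mmp8, the collagenase of neutrophils, had 24, of which 15 were in aneurysm 5, 7 in aneurysm 7 and 2 in control 8. Mmp20, the enamel protease, had 82, all intron reads of aneurysm 6. Mmp7 (matrilysin) had 101, of which 78 were in aneurysm 7, 10 in aneurysm 5 and 13 in control 5. So the promoters printed above belong to 1 gene with 3879 reads and 6 with 0 to 101.

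In CPM, Mmp12 averaged 96.7 ± 101 in aneurysms and 0.189 ± 0.192 in controls (SD, n = 5 each). The ratio of summed reads, scaled for library size, was 907 with a 95% counting interval of 310 to 4401, which rests on 3 control reads and covers counting error only. An exact permutation test of the mean gave p = 0.167, and one of the ranks p = 0.381 (two-sided, smallest possible p 0.00794). In edgeR's quasi-likelihood test Mmp12 did not pass the filter on low counts, which asks for a CPM worth about 10 reads in at least 5 samples. Without that filter edgeR gave a log2 fold change of 9.11 (SE 1.60, adjusted p = 1.2e-05), with 0.778% of 16700 genes called. That fit also gave smaller SEs than the filtered one for Col1a1 (0.67 against 1.17), Col3a1 (0.84 against 1.19) and Lyz2 (0.85 against 1.33). This adjusted p is therefore not comparable with those of the filtered fit. A filter of at least 10 reads in at least 3 samples, added after seeing the data, lets Mmp12 in only through its 3 high aneurysms, so its log2 fold change of 9.07 there (SE 1.85, 0.267% of 10481 genes called) is a description only. The 3 aneurysms with Mmp12 reads were also the 3 with the highest summed macrophage markers. They were the 3 highest in the summed fibroblast markers too (303, 19999, 14410, 3967 and 399 CPM in aneurysms 4 to 8). In these 3 aneurysms most of the sum was Col1a1 and Col3a1, with 15962 and 3638 CPM in aneurysm 5. Lum was also highest in the same 3 aneurysms, whereas Pdgfra, Dcn, Pi16 and Dpt were not. Pdgfra had 122.9 CPM in aneurysm 4 and 0 in aneurysm 6. Of 11 macrophage markers tested, 9 had a log2 fold change above 0 and 2 below, Mrc1 (-0.18) and Cd163 (-0.29). Cd68, a lysosomal macrophage marker, had 1, 3550, 2784, 246 and 3 reads in aneurysms and at most 1 in any control. The part of macrophage number in the Mmp12 reads was not tested.

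**Figure D1:**
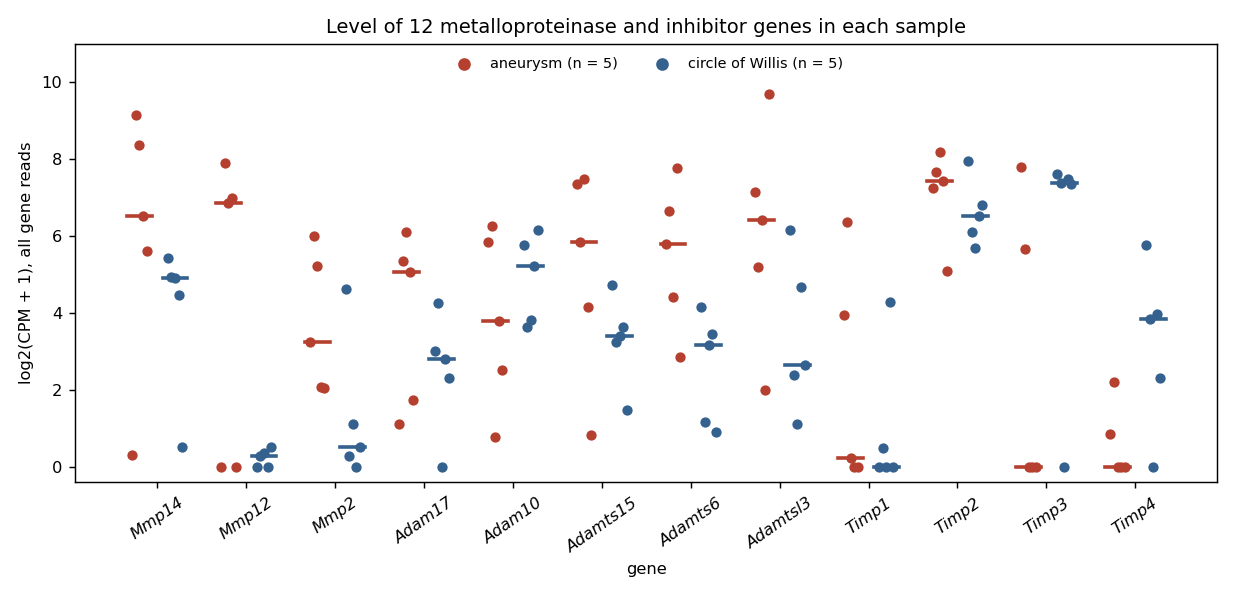
Levels of 12 genes as log2(CPM + 1) of all gene reads (vertical axis), with 1 point per sample, aneurysms on the left and controls on the right of each gene, and a bar at each group's median. Mmp12 is high in 3 aneurysms and at or near 0 in the other 7 samples, and in none of the 12 genes do the groups separate fully.

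Mmp14, the membrane-anchored MMP that activates pro-Mmp2 on the cell surface, was the metalloproteinase with most reads. It had 2, 6124, 1819, 456 and 61 reads in aneurysms, against 244, 140, 101, 120 and 1 in controls. Aneurysms 5, 6 and 7 were the 3 highest samples, whereas aneurysm 4 lay below every control in CPM, so that the groups overlapped. All 61 reads of aneurysm 8 were intron reads, and its 48.3 CPM rests on them. The means were 207 ± 237 CPM in aneurysms and 24.6 ± 15.5 CPM in controls (SD, n = 5 each). The log2 fold change was 3.07 (SE 1.12) with an unadjusted p of 0.0104 and an adjusted p of 0.545 in edgeR. Without aneurysm 5 it was 2.33, and the exon reads alone gave 2.13 (SE 1.13). Mmp14 had 8999 exon reads and 0 reads across junctions. Of the 1363 genes with at least 5 exons and 1000 exon reads, 24.8% had none either. That set starts at far fewer exon reads than Mmp14 had, and the share among genes of like depth is not given here.

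The gelatinases cut denatured collagen and basement membrane. Mmp2 had 73, 685, 202, 16 and 4 reads in aneurysms and 137, 1, 4, 0 and 1 in controls. Control 4 exceeded 3 of the aneurysms, and the other 4 controls were at or below every aneurysm. The mean was 22.9 ± 26.4 CPM in aneurysms and 5.12 ± 10.5 CPM in controls, with a log2 fold change of 2.15 (SE 1.75, edgeR adjusted p = 0.999), and 5.61 without control 4. Mmp9, the other gelatinase, had 0 reads in all 5 aneurysms and 1 read in control 8. At these depths a count of 0 allows up to 3 reads in a library, so low Mmp9 levels were not detectable. The 9 neutrophil markers, cells that carry Mmp9 and Mmp8 protein in granules, summed to 0 to 8.56 CPM in aneurysms and 0.578 to 21.7 CPM in controls, and S100a9, Mpo, Elane, Camp and Retnlg had 0 reads in all samples.

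Of the other membrane-type MMPs, Mmp15 had 51 of its 61 reads in aneurysm 5 and 8 in control 5, and Mmp17 had 34 of its 79 in aneurysm 7 and 41 in control 6. Mmp24, a membrane-type MMP of neurons, had 2, 26, 24, 3 and 0 reads in aneurysms, against 2, 50, 111, 132 and 15 in controls. Aneurysms 4, 7 and 8 and control 4 were low. Of these reads 35.9% were not unique: on unique reads control 6 had 4 and aneurysm 6 had 0, and Mmp24 no longer passed the filter. Its log2 fold change was -3.22 (SE 1.73, edgeR adjusted p = 0.889), and the part of the lower neuron marker sums in this was not tested. Mmp16 had 2, 92, 2, 298 and 79 reads in aneurysms and 69, 3, 12, 0 and 67 in controls, 92.0% of them in introns, with a log2 fold change of 1.52 (SE 1.70). Among the MMPs left out by the filter, Mmp23 had 257 of its 279 reads in aneurysm 6 and Mmp28 (epilysin) 156 of its 235 in aneurysm 4.

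The ADAM genes that shed membrane proteins gave no common direction. Adam17, which releases tumour necrosis factor and growth factors of the EGF family, had 10, 430, 376, 163 and 3 reads in aneurysms and 41, 87, 0, 34 and 9 in controls. Its exon reads were 1, 350, 224, 106 and 1 in aneurysms and 0 in every control, so all 171 control reads lay in introns. Against 3 reads over the control group, the exon reads were at least 159.6-fold higher in aneurysms, of which 3 carry nearly all of them. That bound pools the reads of all libraries of a group and covers counting error only, not the spread between samples. All gene reads gave a log2 fold change of 2.01 (SE 1.57, edgeR adjusted p = 0.999), which was not called. Adam10, the sheddase of Notch receptors and of the amyloid precursor, had 487, 818, 4, 64 and 6 reads in aneurysms and 311, 54, 46, 207 and 158 in controls. In CPM, aneurysm 5 lay above every control and aneurysms 6 and 8 below every control, so that Adam10 showed no common direction. Its log2 fold change of -0.29 (SE 1.18) changed sign under 4 of the alternatives. Its exon reads came mostly from aneurysm 5 (719 of 872).

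Adam15, a sheddase of vessel and other cells, was read almost wholly in exons. It had 122, 283, 7, 303 and 0 reads in aneurysms and 38, 19, 56, 7 and 0 in controls, with a log2 fold change of 1.87 (SE 1.72). In CPM, aneurysms 5 and 7 stood above every control, and aneurysm 8 and control 8 had 0. Adam19 had 95, 746, 174, 8 and 11 reads in aneurysms and 29, 425, 48, 55 and 76 in controls (log2 fold change -0.32, SE 1.26). Adam8, a sheddase of leukocytes, had 0, 80, 0, 92 and 1 reads in aneurysms and 2, 0, 0, 0 and 0 in controls, all of them in introns. Adam33, a sheddase of mesenchymal cells, had 111, 43, 0, 0 and 0 reads in aneurysms and 0, 1, 7, 43 and 0 in controls.

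The neural ADAMs lack protease activity and anchor LGI proteins at synapses. Adam22 had 163, 11, 23, 16 and 53 reads in aneurysms and 63, 31, 313, 61 and 59 in controls, 99.9% of them in introns (log2 fold change -1.07). Adam23 had 764 of its 799 aneurysm reads in aneurysm 4, and Adam11 had 74 reads in aneurysm 5 and 51 in control 4 with 3 elsewhere. ADAMs known mainly from the male germ line also had reads in these female vessels, and most were intron reads. Adam32 had 22, 4, 1, 96 and 260 reads in aneurysms and 98, 27, 44, 118 and 5 in controls, 99.9% of them in introns. Adam18 had 12, 1, 5, 31 and 242 reads in aneurysms and 1, 6, 7, 72 and 32 in controls. Adam5 had 4, 0, 0, 2 and 0 reads in aneurysms and 0, 0, 67, 133 and 1 in controls. All reads of both genes lay in introns. Adam4 is annotated with 1 exon, so its reads could only be exonic. It had 243 reads, 242 of them in aneurysm 4 and 1 in control 6.

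**Figure D2:**
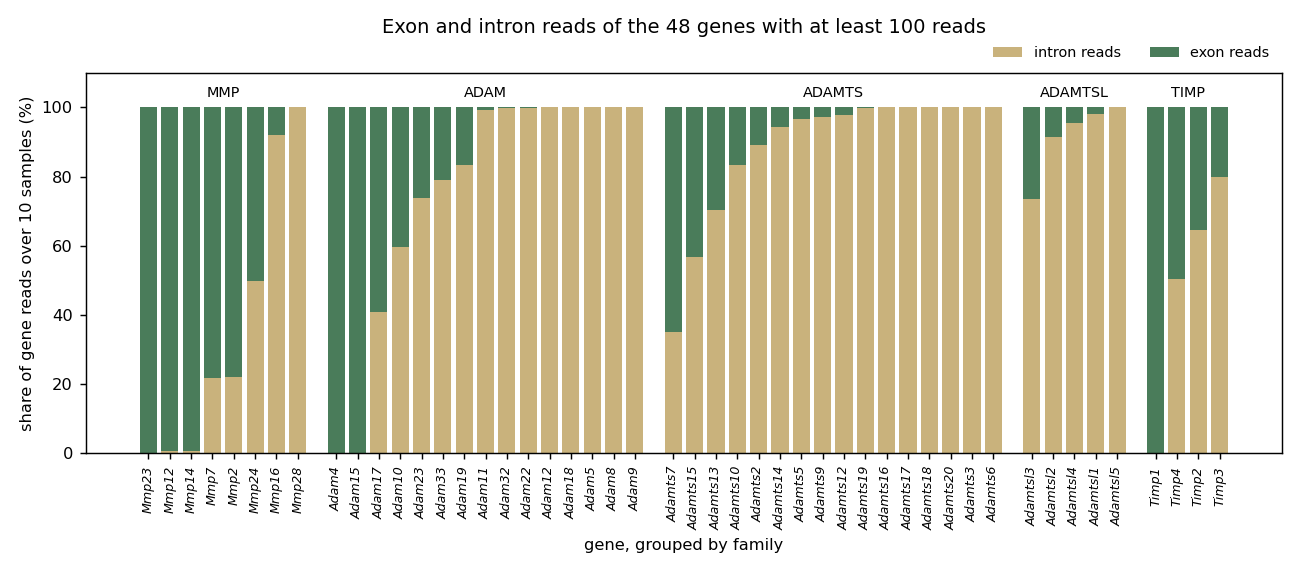
Share of intron reads (sand, lower part) and exon reads (green, upper part) among all gene reads of the 10 samples, in percent, for the 48 genes with at least 100 reads, grouped by family. Mmp12, Mmp14, Mmp23, Adam15 and Timp1 are nearly all exonic, whereas most ADAM and ADAMTS genes are read mainly in introns. Adam4 is annotated with 1 exon and can only be exonic.

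Where the reads fell differed between the families. Intron reads made up 9.60% of the MMP reads, 77.3% of the ADAM reads, 87.8% of the ADAMTS reads, 83.7% of the ADAMTSL reads and 65.2% of the TIMP reads. Mmp14 and Mmp12 held most of the 15931 MMP reads, with 69 intron reads of 9068 and 22 of 3879. Among the other MMPs with at least 100 reads, the intron share ran from 0% for Mmp23 to 92.0% for Mmp16 and 100% for Mmp28. The low MMP share is therefore mostly that of Mmp14 and Mmp12. Over the whole set 65.7% of 80886 reads were intron reads, against 41.8% over all genes. Only 8 of the 74 genes had at least 10 exon reads in 5 or more samples, and 33 had them in at least 1. Another 9 genes had no read at all, and 18 had fewer than 10 (these 9 included). A value from all gene reads of an ADAMTS gene is therefore mostly a value of intron reads.

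Adamts15, which cuts versican and aggrecan, had 1400, 620, 1000, 84 and 1 reads in aneurysms, against 148, 40, 33, 65 and 4 in controls. Aneurysms 4, 5 and 6 stood above every control in CPM, and aneurysm 8 was the lowest sample. Its exon reads were 321, 516, 509, 39 and 0 in aneurysms and 19, 24, 1, 43 and 0 in controls. The means were 83.9 ± 83.4 CPM in aneurysms and 11.4 ± 8.80 CPM in controls, with a log2 fold change of 2.87 (SE 1.15, edgeR unadjusted p = 0.0187, adjusted p = 0.649). Adamts20, of the same class, had 227 and 275 of its 531 reads in aneurysms 4 and 6, all in introns. Adamts9 had 267, 256, 0, 430 and 4 reads in aneurysms and 265, 115, 239, 239 and 95 in controls, while Adamts4 had 68 reads in all, Adamts1 had 1 and Adamts8 had 0.

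The procollagen N-proteinases remove the amino-terminal propeptide of fibrillar procollagens, and none of the 3 was called. Adamts2 had 330, 313, 356, 272 and 183 reads in aneurysms and 509, 408, 277, 1042 and 56 in controls, with a log2 fold change of -0.49 (SE 0.79). Adamts14 had 140, 146, 731, 261 and 1 reads in aneurysms and 90, 12, 2, 68 and 0 in controls, with a log2 fold change of 2.79 (SE 1.51). Adamts3 had 5, 115, 22, 4 and 8 reads in aneurysms and 46, 87, 45, 63 and 70 in controls, all in introns. In CPM, 4 of 5 aneurysms lay below every control. Of the 40 genes tested singly, 1 gave an exact permutation p under 0.05 on the ranks, Adamts3 (p = 0.0159, unadjusted, two-sided), against 6.3% of all genes tested. On the means there were 3, Adamts3, Mmp24 and Adamts6, against 8.46% of all genes tested. The 40 were chosen in part by a low p in the same comparison, so these counts add no support. The edgeR log2 fold change of Adamts3 was -1.87 (SE 1.57, adjusted p = 0.999). The genes of their main substrates were called higher in aneurysms by edgeR: Col1a1 by 5.97 (SE 1.17) and Col3a1 by 6.21 (SE 1.19) on the log2 scale, both with an adjusted p of 0.0325. Over 23 alternatives the log2 fold change stayed between 4.43 and 6.45 for Col1a1 and between 5.56 and 7.15 for Col3a1, but 10 and 9 of them ended the call, upper-quartile and library-size scaling (adjusted p 0.0669 to 0.0675), limma-voom (0.324 and 0.300) and leaving out aneurysm 5 or 6 or control 4, 6, 7 or 8 for both (0.0546 to 0.100), and control 5 for Col1a1.

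Adamts6, a protease linked in mice to fibrillin-rich microfibrils, had 467, 1089, 114, 1073 and 8 reads in aneurysms and 97, 6, 28, 57 and 2 in controls. Aneurysms 4, 5, 6 and 7 stood above every control in CPM, and aneurysm 8 did not. Every one of the 2941 reads lay in an intron. The log2 fold change was 3.41 (SE 1.18, edgeR unadjusted p = 0.0074, adjusted p = 0.507), and 2.63 without aneurysm 7. Adamts7, which cuts cartilage oligomeric matrix protein, was left out by the filter but had 92, 87, 94, 0 and 1 reads in aneurysms and 2, 3, 2, 1 and 0 in controls. Of those, 182 of 274 in aneurysms and 1 of 8 in controls were exon reads. The ratio of its summed reads was 24.0 (95% counting interval 12.0 to 56.3, counting error only), and exact permutation tests gave p = 0.0794 for the mean and p = 0.103 for the ranks. Adamts16, Adamts18 and Adamts19 each had most of their reads, nearly all in introns, in 1 or a few samples: Adamts18 had 147 of 167 reads in control 7.

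Adamtsl3, an ADAMTS-like matrix protein without a protease domain, had 1197, 391, 474, 15 and 1058 reads in aneurysms and 404, 20, 4, 141 and 12 in controls. In CPM, aneurysm 8 reached 837, whereas aneurysms 5 and 7 had 36.1 and 3.03, within the control range of 1.16 to 70.2. The log2 fold change was 3.37 (SE 1.14, edgeR unadjusted p = 0.0062, adjusted p = 0.469), the lowest p of the set. Without aneurysm 8 it was 1.66, so that this library carries much of the difference. Adamtsl4, which binds fibrillin, had 235, 132, 14, 121 and 0 reads in aneurysms and 432, 161, 25, 74 and 44 in controls (log2 fold change -1.15, SE 1.40). Adamtsl2, also a fibrillin-binding protein, had 171, 92, 9, 0 and 3 reads in aneurysms and 0, 37, 0, 36 and 0 in controls.

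Among the inhibitors, Timp2, which blocks MMPs and takes part in the activation of pro-Mmp2 by Mmp14, was the most evenly read. It had 1300, 2191, 1630, 847 and 42 reads in aneurysms and 1420, 323, 175, 515 and 251 in controls. The means were 171 ± 94.1 CPM in aneurysms and 114 ± 77.9 CPM in controls, with a log2 fold change of 0.59 (SE 0.72, edgeR adjusted p = 0.999). Its exon reads were 97, 1718, 845, 136 and 0 in aneurysms and 102, 60, 8, 58 and 56 in controls, so that aneurysms 5 and 6 stand out more in exons than in all reads. Timp1, the inducible inhibitor, had 124, 879, 1, 0 and 0 reads in aneurysms and 0, 2, 0, 105 and 0 in controls, nearly all in exons. Only aneurysms 4 and 5 and control 7 had more than 2 reads, so Timp1 was left out by the filter.

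Timp3, the matrix-bound inhibitor, was present or absent by sample. It had 1909, 539, 0, 0 and 0 reads in aneurysms and 1127, 791, 0, 1015 and 364 in controls. In CPM the 4 controls with reads lay between 162 and 196, while 3 aneurysms and control 6 had 0 reads. However, 79.9% of the Timp3 reads, as many as its intron reads, were not counted as unique to the gene. The unique reads were 351, 373, 0, 0 and 0 in aneurysms and 7, 59, 0, 253 and 110 in controls, so that on these the controls lay far apart. The log2 fold change was -1.36 (SE 1.40, edgeR adjusted p = 0.999) on all reads, -0.52 on unique reads, -3.48 without aneurysm 4 and -4.31 in limma-voom. Timp4, an inhibitor of heart and vessels, had 7, 39, 0, 0 and 0 reads in aneurysms and 310, 63, 0, 83 and 9 in controls, and was at 0 in the same 4 samples. Of its reads 50.5% were not unique, and the unique reads were 6, 39, 0, 0 and 0 in aneurysms and 189, 9, 0, 2 and 8 in controls. The log2 fold change of Timp4 was -4.17 (SE 1.98, edgeR unadjusted p = 0.0449, adjusted p = 0.861), and exact permutation tests gave p = 0.0556 for the mean and p = 0.0635 for the ranks.

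In the deposited coordinates Timp1, Timp3 and Timp4 lie inside Syn1, Syn3 and Syn2, genes of synaptic vesicle proteins, which run on the opposite strand in rodents. The strand setting of the counting is not given in the sources used here, so reads of host and inhibitor may have been shared. Syn3 had 629, 1429, 2340, 254 and 165 reads in aneurysms and 1022, 355, 188, 355 and 59 in controls, nearly all in introns. Syn3 was thus read in aneurysms 6, 7 and 8 and control 6, in which Timp3 had 0 reads. The exon reads of Timp1, Timp3 and Timp4 equalled their unique reads in every sample. Their non-unique reads, 1, 4592 and 258, were as many as their intron reads. Fold changes, sums and ratios of TIMP genes on all gene reads include these reads, and their origin was not tested. Adam22, Adamts6, Adamts13 and Timp2 also overlap other genes, of fewer reads.

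Compared per kilobase of exon, which allows levels of different genes to be set side by side, the order of the genes differed between the groups. In aneurysms the exon level was 80.9 ± 101 CPM per kb for Mmp14, 53.8 ± 55.8 for Mmp12, 42.1 ± 47.4 for Timp2 and 25.9 ± 47.6 for Timp1 (SD, n = 5). In controls it was 12.3 ± 13.6 CPM per kb for Timp3, 9.94 ± 6.30 for Mmp14, 8.17 ± 5.08 for Timp2 and 5.06 ± 11.2 for Timp1. Neighbours in either order differ by less than these SDs. Mmp12, second in aneurysms, was 19th in controls.

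**Figure D3:**
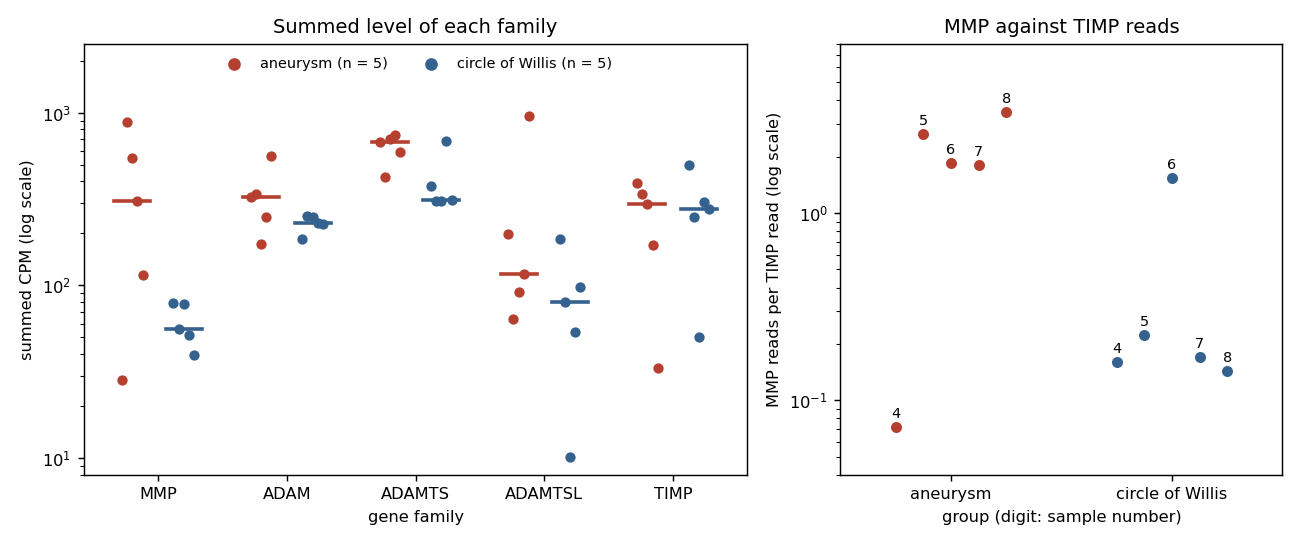
Left, summed CPM of each family per sample on a log axis, aneurysms left of controls, with a bar at each median. Right, MMP reads per TIMP read in each sample on a log axis, labelled by sample number. The MMP sums of 4 aneurysms, 115 to 887 CPM, lie above the highest control at 79.1 CPM, and aneurysm 4 lies below all controls. In exon reads only aneurysms 5, 6 and 7 lie above the controls.

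Summed over the family, MMP genes had 28.1, 887, 547, 308 and 115 CPM in aneurysms 4 to 8 and 79.1, 55.8, 78.0, 51.7 and 39.6 CPM in controls. TIMP genes had 392, 337, 294, 171 and 33.2 CPM in aneurysms and 497, 249, 50.5, 303 and 278 CPM in controls. In exon reads the MMP sums were 0.586, 876, 501, 239 and 2.37 CPM in aneurysms and 9.79 to 66.2 CPM in controls, so that aneurysm 8 also lay below every control. MMP reads per TIMP read, over all gene reads, were 0.0719, 2.64, 1.86, 1.80 and 3.45 in aneurysms and 0.159, 0.224, 1.54, 0.171 and 0.143 in controls. In 4 of 5 aneurysms MMP reads outnumbered TIMP reads, as they did in control 6, the control without Timp3 or Timp4 reads, and aneurysm 4 had the lowest ratio of all. In aneurysm 8 the ratio rests on 145 MMP and 42 TIMP reads. Mmp14 and Mmp12 together made up 90.7%, 81.3% and 71.2% of the MMP reads of aneurysms 5, 6 and 7. Without these 2 genes the ratio was 0.0713, 0.245, 0.349, 0.518 and 2.00 in aneurysms and 0.0739, 0.104, 0.960, 0.101 and 0.139 in controls.

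Counted in exon reads, the same ratio was 0.00865, 3.16, 3.29 and 8.72 in aneurysms 4 to 7, and aneurysm 8 had 3 MMP and 0 TIMP exon reads. In controls it was 1.28, 1.29, 13.8, 0.600 and 0.126. The exon ratio of control 6 rests on 8 TIMP reads. Controls 4 and 5 thus had more MMP than TIMP exon reads, unlike in all gene reads. ADAM sums were 173 to 559 CPM in aneurysms and 185 to 252.1 CPM in controls, and ADAMTS sums were 422 to 739 CPM in aneurysms and 306 to 690 CPM in controls. ADAMTSL sums were 64.0 to 958 CPM in aneurysms and 10.1 to 186 CPM in controls. In every family the 2 groups overlapped.

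Across all genes, edgeR's quasi-likelihood test with Benjamini-Hochberg adjustment called 12 of 7615 genes tested (0.158%), 9 higher and 3 lower in aneurysms. Of the 74 genes 30 could be tested and 0 were called. At an unadjusted p under 0.05, 4 were higher (Adamtsl3, Adamts6, Mmp14 and Adamts15) and 1 was lower (Timp4), against 5.73% of all genes tested in either direction. DESeq2 called 2, Adamts6 (log2 fold change 3.53, adjusted p = 0.0299) and Adamtsl3 (4.17, adjusted p = 0.0324), with 1.73% of all genes called, and limma-voom and edgeR's exact test called 0. In 0 of the 30 genes were the CPM values of the groups free of overlap, against 2.04% of all genes tested. The biological coefficient of variation was 1.38, a wide spread between samples of a group. Another 44 genes were left out by the filter, 18 of them with at least 100 reads over the samples.

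**Figure D4:**
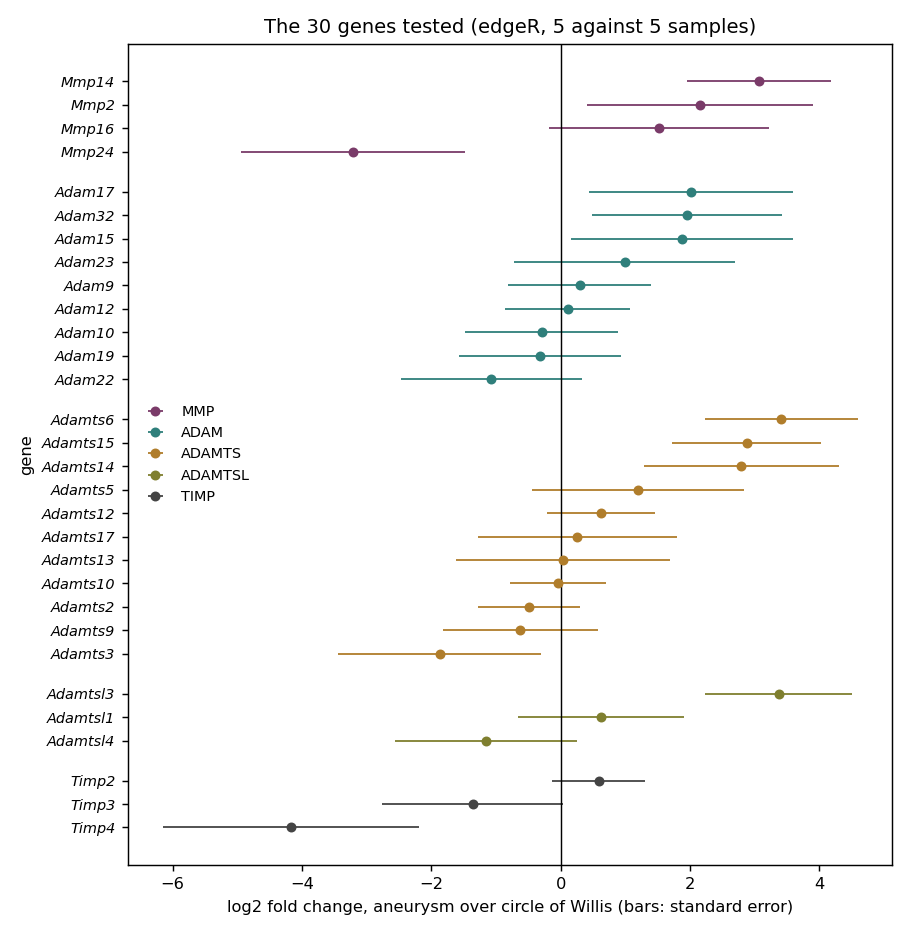
Log2 fold change of aneurysm over control (horizontal axis) for the 30 genes tested in edgeR, coloured by family, with bars of 1 standard error. Values run from -4.17 for Timp4 to 3.41 for Adamts6, and none passed the adjusted threshold.

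Of the 30 log2 fold changes 19 were above 0 and 11 below, with a median of 0.44, against 0.13 over all genes tested. By class the median was 1.52 for 3 membrane-type MMPs, 0.20 for 6 catalytic ADAMs, 1.20 for 3 proteoglycan-cleaving ADAMTSs, -0.49 for 3 procollagen N-proteinases, 0.26 for 5 other ADAMTSs, 0.63 for 3 ADAMTS-like proteins and -1.36 for 3 TIMPs. These are descriptions of a few genes each. The 8 tested genes not described singly (Adam9, Adam12, Adamts5, Adamts10, Adamts12, Adamts13, Adamts17 and Adamtsl1) had values between -0.04 and 1.20. The median of all genes was itself 0.40 in DESeq2 and -0.32 in limma-voom.

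The genes around the proteases were described from 3 lists. Among 18 genes that activate, clear or otherwise inhibit the proteases, 11 were tested and 0 were called, with a median log2 fold change of 1.52. Their summed level was 494 to 1270 CPM in aneurysms and 211 to 418 CPM in controls. Single genes carried much of it: Lrp1 gave 837 of the 945 CPM of aneurysm 8, the library with the lowest TMM factor. The lowest p belonged to Ctsk, cathepsin K, a collagen-cutting protease of osteoclasts and macrophages, with 0, 2048, 2638, 402 and 0 reads in aneurysms and 32, 35, 0, 1 and 2 in controls (log2 fold change 5.70, SE 1.60, edgeR adjusted p = 0.232). Aneurysms 5, 6 and 7 were again the high samples, and Ctsk gave 476 of the 1270 CPM of the list in aneurysm 6. Serping1, the inhibitor of complement C1 proteases, gave 2.51 (SE 1.29) and Lrp1, a receptor that clears proteases, 1.69 (SE 0.67), neither of them called.

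Of 15 matrix substrates listed among the genes, 14 were tested and 2 were called, the collagen genes Col1a1 and Col3a1 given above, with a median log2 fold change of 1.26. Col3a1 had 518, 39427, 15443, 3925 and 162 reads in aneurysms and 34, 275, 115, 6 and 3 in controls. Fn1, fibronectin, gave 3.50 (SE 0.82, edgeR adjusted p = 0.0902) and Col4a1, of basement membrane, 2.11 (SE 0.69, adjusted p = 0.417). Of 21 ligands, receptors and partners of ADAMs 13 were tested and 0 were called, with a median of -0.07. Those with the lowest p were Tnfrsf1a, a receptor of tumour necrosis factor (2.86, SE 1.99), Rhbdf2, a partner of Adam17 (2.31, SE 1.86), Cx3cl1, a chemokine shed by Adam10 and Adam17 (-2.10, SE 1.80), and Notch1 (-1.94, SE 1.73). Of the 14 macrophage markers 11 were tested and 1 was called, Lyz2 (6.47, SE 1.33, edgeR adjusted p = 0.0325), with 369, 27911, 23533, 2777 and 2 reads in aneurysms and 168, 1, 34, 148 and 41 in controls. The call of Lyz2 was lost under 11 of 23 alternatives (adjusted p up to 0.341).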

How the data were processed

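Poly(A)-selected RNA of 5 rupture-prone aneurysms and 5 samples of the remaining circle of Willis had been made into TruSeq stranded mRNA libraries and sequenced on a NextSeq500. Reads were mapped to Rnor6 by the authors in CLC genomics workbench (version 11), and raw counts per gene were deposited as total, unique, exon, intron and junction reads. Not given in the sources used here: strand setting, annotation release and treatment of duplicates. Columns of the authors' own fold changes, p-values, normalized values and RPKM were not used, and 0 columns belonged to unmatched samples. All rows named a gene.

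Groups and numbers came from the sample labels. The paper states that both tissues were dissected from 1 animal, but not that a number marks the animal, and deviations of same-numbered samples did not correlate in every pair, which leaves the pairing unknown, and no block was used. No source says that each number is a separate animal, and p-values cover only the spread among the samples at hand, which may be technical. Within a group no 2 samples agreed within sampling noise (lowest chi-square over its degrees of freedom 55.8).

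Total gene reads were fitted across all genes with edgeR 4.0.16 (filterByExpr with a minimum count of 10, TMM, glmQLFTest, Benjamini-Hochberg over all genes tested, threshold 0.05) in R 4.3.3. DESeq2 1.42.0, limma 3.58.1 and other scalings, filters and read types were alternatives, 22 planned and 1 added after seeing the data (at least 10 reads in at least 3 samples). Scripts were tested on simulated data. Exact permutation tests, two-sided and unadjusted, were run on CPM (counts per 1e6 of the scaled library) of 40 named genes with scipy 1.17.1. These were Mmp2, Mmp9, Mmp12, Mmp14, the 4 TIMPs, up to 10 tested members with the lowest p in each direction, and members with at least 100 reads that the filter left out. Of 3 lists of related genes, those called and up to 4 with the lowest p were named, except for 1 result that is not reported here. Members, lists and markers were chosen with earlier results of these data known. The 7 fibroblast markers that were found summed to 303 to 19999 CPM in aneurysms and 61.4 to 393 CPM in controls (2 of 5 tested called higher, Col1a1 and Col3a1), and the 7 oligodendrocyte markers to 40.8 to 509 CPM in aneurysms and 34.9 to 159 CPM in controls. Promoters were matched by symbol (50 of 74 members) in RefSeq GRCr8.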

Additional observations from a re-analysis of the deposited data

Results flagged for a closer look

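Of 72 groups of 5 samples looked at, 11 held a sample whose gap to the nearest other, divided by the range of its group, passed Dixon's critical value of 0.71 on the log2 CPM scale. For normally distributed values chance gives about 1 in 20 groups. For Adam4, Mmp23 in aneurysms and Mmp7 the other 4 samples are tied at 0 reads, so that any sample with reads passes. Among the inhibitors, Timp1 was at 4.24 in control 7, against -1.41 to -0.32 in the other controls, and Timp3 was at -1.41 (0 reads) in control 6, against 7.34 to 7.62 in the others. Mmp14 was at -0.28 in control 8, against 4.43 to 5.42 in the other controls. Adam11 was at 2.85 in aneurysm 5, and it was at 3.21 in control 4. Mmp23 was at 5.55 in aneurysm 6, and it was at 2.27 in control 5. Adam4 was at 4.85 in aneurysm 4, and Mmp7 was at 1.645 in control 5. In aneurysm 8, the library with the lowest TMM factor, Adamts16 was at 6.645 and Adamts19 at 7.485.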

How the results depend on the processing

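The number of genes called in the whole table, 12 in the edgeR fit, was 132 in DESeq2, 34 in edgeR's exact test, 2 with upper-quartile scaling, 2 with library-size scaling, 130 without the low-count filter, 24 without both samples numbered 8 and 28 with at least 10 reads in at least 3 samples. It was 13 in limma-voom, with 2 higher and 11 lower, against 9 higher and 3 lower in the edgeR fit, and leaving out 1 sample at a time gave 1 (without control 8) to 33 (without aneurysm 8). Members called higher numbered 2 in DESeq2 (Adamts6, Adamtsl3), 1 without the filter and 1 with at least 10 reads in at least 3 samples (Mmp12 in both, which passes the second, added filter only through its 3 high aneurysms), and 0 under the other alternatives, each left-out sample included. Members called lower numbered 0 throughout. Whether a shared number marks an animal is not given, and the data do not settle it (correlations of same-number deviations 0.0240, -0.0236, 0.04998, 0.0000789 and 0.136, with the own number best for 2 of 5), and the fit with the number as a replicate block called 17 genes and 0 members, with Timp3 at -4.46 (edgeR adjusted p = 0.463).

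Of 466 recomputed log2 fold changes of 21 named genes 13 changed sign, in 5 genes, none of them called, and the cause was not tested. Adam32 (1.95) was -1.77 in limma-voom, -2.04 in the replicate block, -1.35 without both samples numbered 8 and -1.05 (without aneurysm 8) to 2.61 with 1 sample left out. Adam10 (-0.29) was 0.0861 with library-size scaling, 0.33 without both samples numbered 8, and -0.95 to 0.0626 with 1 sample left out. Adam19 (-0.32) was 0.0465 with library-size scaling and -1.11 to 0.64 with 1 sample left out. Adamts2 (-0.49) was 0.0741 in DESeq2, and Adam22 (-1.07) was 0.0066 without control 6. The sign of the other 16, Mmp14, Mmp2 and the 3 tested TIMPs among them, held wherever a value could be had, but not the size: Mmp14 was 1.38 in limma-voom, Mmp2 ran from 1.40 to 5.61 and Timp3 from -4.46 to -0.52. The filter left out 44 of 74 genes, 18 of them with at least 100 reads, which lay in too few samples.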
